A study of Homo sapiens with 4 samples.

Results

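The surface antigens by which acute myeloid leukemia (AML) cells are recognised and targeted were examined at the RNA level after knockdown of ANP32B. The genes were given by name, as CD34, CD33, CD38, ANPEP, CD44, CD47, CLEC12A, PTPRC, CD99 and CD4. Of these 10 genes 9 had a row among the 18567 genes of the deposited table, and all 9 were among the 16817 genes tested. CD34 was not analysed here. None of the 9 antigens passed the test at an adjusted p under 0.05, where 3.32% of all genes did. A positive fold change was found in 8 of the 9 antigens and in 57.9% of all genes. An unadjusted p under 0.05 was found in 5 antigens, beside 23.8% of all genes. Of these 5, ANPEP, CD4, PTPRC and CD44 were higher and CD38 was lower in the knockdown samples. Whatever their p, 6 antigens were higher and 1 was lower without overlap of the groups, beside 33.2% and 21.4% of all genes.

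RNA was sequenced from Kasumi-1, an established AML cell line that carries the RUNX1-RUNX1T1 fusion. The NC group of 2 samples is labelled as having no hairpin and no treatment, while the study describes a control hairpin, so that an effect of infection and puromycin selection cannot be told apart from the knockdown if NC was untreated. The sh-ANP32B group of 2 samples is labelled as carrying the knockdown, and which of the study's hairpins each sample received is not given in the sources used here. Nothing states that the samples of a group were separate cultures. The p-values set a difference against the spread between these samples, estimated in part from other genes, and this spread may be technical.

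Expression is given in TPM, where the reads of a gene are divided by transcript length and by the total of the sample, so that levels can be compared between genes. TPM keeps no read depth, so depth is unknown here. The targeted gene ANP32B measured 384 and 392 TPM in NC against 51.8 and 41.2 TPM after knockdown (log2 fold change -3.04, SE 0.150, limma adjusted p 0.00516), and a limma adjusted p of 0.0929 when no abundance trend was used. Among markers of the myeloid lineage, LYZ, SPI1, CEBPA and AZU1 lay between 241 and 1360 TPM in the 4 samples, and RUNX1T1, the partner in the fusion, between 15.6 and 31.2 TPM. KIT, the stem cell factor receptor, of which Kasumi-1 is known to carry an activating mutation, was low, between 1.55 and 3.41 TPM. MPO was not analysed here. Of the 24 markers of T cells, B cells, erythroid cells, megakaryocytes and fibroblasts, 6 had a row in the table, and their highest value in any sample was 5.74 TPM. The only T cell marker with a row, TRAC, reached 1.32 TPM. The summed level of the 6 myeloid markers with a row was 1521 to 1523 TPM in NC against 2315 to 2532 TPM after knockdown. LYZ weighed most in this sum, with 669 and 697 TPM in NC against 1360 and 1316 TPM after knockdown. CEBPA overlapped, with 335 and 319 TPM in NC against 292 and 477 TPM after knockdown, and the other markers did not overlap and were higher. Transcripts of 37 mitochondrial genes took 12.95% and 13.13% of the NC totals and 11.44% and 8.43% of the sh-ANP32B totals. The parts of the myeloid marker level and of the mitochondrial share in the results were not tested. With mitochondrial transcripts left out every antigen kept its direction, and every log2 fold change was lower. That of CD4 went from 0.54 to 0.49, of CD33 from 0.14 to 0.09 and of CD38 from -0.72 to -0.77.

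These antigens serve different roles. CD33, ANPEP (known as CD13) and CLEC12A (CLL-1) are antigens of the myeloid lineage used in diagnosis and as targets of antibodies and engineered T cells. CD38 is an ectoenzyme that consumes NAD and, with CD34, is used to separate stem-like from more committed leukemia cells. PTPRC encodes CD45, the tyrosine phosphatase of all leukocytes, which acts on Src family kinases. CD44 binds hyaluronan and anchors blasts in the marrow niche, CD99 is an adhesion molecule raised on leukemia stem cells, CD47 signals to macrophages through SIRPA not to engulf the cell, and CD4 is the coreceptor of helper T cells that monocytes and many AML blasts also carry. RNA levels do not measure the protein at the cell surface, and gene-level values do not separate the splice forms of CD44 and PTPRC. In bulk RNA, fewer cells of a kind and less RNA per cell cannot be told apart.

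The antigens covered a wide range of levels. In NC, CD4 was the highest, with a mean of 436 ± 5.35 TPM (SD, n = 2), which placed it at percentile 98.5 of the genes tested. CD38 was the lowest at 8.22 ± 0.0541 TPM (SD, n = 2), at percentile 39.5. Between them the means were 115 TPM for PTPRC, 101 TPM for CD44, 84.7 TPM for ANPEP, 75.3 TPM for CD47, 63.4 TPM for CD33, 53.97 TPM for CLEC12A and 39.8 TPM for CD99. Each neighbour in this order was separated from the next in both NC samples, except CD99, whose values overlapped those of CLEC12A and CD38. In sh-ANP32B, CD4 remained highest and CD38 lowest, and the values of PTPRC with CD44, of CD44 with ANPEP and of CD33 with CLEC12A overlapped.

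**Figure D1:**
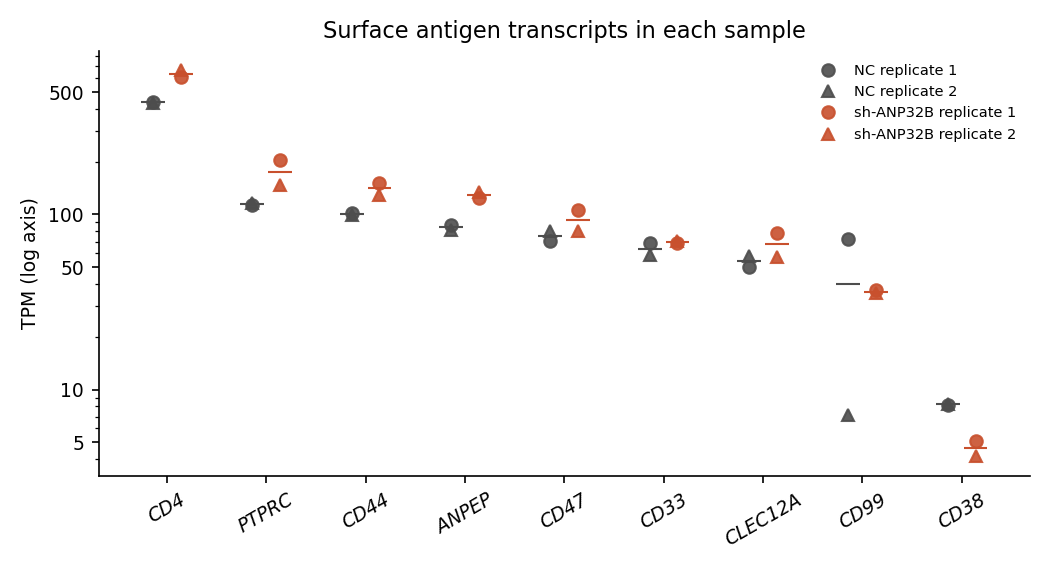
TPM on a log axis for the 9 surface antigens, ordered by their NC mean. Circles are replicate 1 and triangles replicate 2, grey for NC and orange for sh-ANP32B, and the short lines are group means of 2 samples. CD4 lies at 432 TPM or more in every sample, CD38 at 8.26 TPM or less, and the NC replicates of CD99 stand apart at 72.4 and 7.17 TPM.

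The sequence upstream of a RefSeq start site is shown for 4 antigens, for GRCh38.p14, the assembly that hg38 represents. The RefSeq start need not be the start of the gene coordinates given below. The windows of PTPRC and CLEC12A lie inside those coordinates, and the windows of CD38 and CD33 run past the gene start. Each window holds the 250 bases before the RefSeq start, 5′ to 3′ on the strand of the gene, and 8 of the 9 antigens had such a window (9 windows, with 2 for ANPEP and none for CD4). CD38 and PTPRC are shown as antigens with differences in opposite directions, and CD33 and CLEC12A because their windows hold one of the motifs searched.
CD38, chr4:15778078-15778327, plus strand: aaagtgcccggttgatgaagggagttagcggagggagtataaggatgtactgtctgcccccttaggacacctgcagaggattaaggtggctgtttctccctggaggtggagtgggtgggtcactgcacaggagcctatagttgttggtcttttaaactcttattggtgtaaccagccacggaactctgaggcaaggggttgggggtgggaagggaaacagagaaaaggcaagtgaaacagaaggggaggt
PTPRC, chr1:198638790-198639039, plus strand: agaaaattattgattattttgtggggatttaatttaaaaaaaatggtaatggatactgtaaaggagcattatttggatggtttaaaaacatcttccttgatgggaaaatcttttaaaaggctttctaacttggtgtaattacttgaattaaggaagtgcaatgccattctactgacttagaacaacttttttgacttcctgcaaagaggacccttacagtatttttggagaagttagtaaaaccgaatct
CD33, chr19:51224830-51225079, plus strand: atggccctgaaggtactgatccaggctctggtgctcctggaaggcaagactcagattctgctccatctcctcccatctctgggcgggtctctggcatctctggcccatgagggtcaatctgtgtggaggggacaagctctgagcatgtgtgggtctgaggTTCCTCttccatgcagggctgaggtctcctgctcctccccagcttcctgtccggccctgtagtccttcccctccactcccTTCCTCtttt
CLEC12A, chr12:9971159-9971408, plus strand: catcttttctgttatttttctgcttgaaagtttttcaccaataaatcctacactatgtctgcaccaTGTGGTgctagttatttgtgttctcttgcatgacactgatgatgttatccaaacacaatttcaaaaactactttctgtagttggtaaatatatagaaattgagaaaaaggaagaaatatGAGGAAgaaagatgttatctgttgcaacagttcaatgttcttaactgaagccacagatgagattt
Capitals mark matches, on either strand, to GAGGAA, the core bound by PU.1 and other ETS factors, and to TGTGGT, the core bound by RUNX factors. The E-box CACGTG, bound by MYC and other factors, was searched as well. GAGGAA was found for CD33 and CLEC12A, 2 of the 8 antigens, and in 23.6% of all 35116 windows of this length. TGTGGT was found for CLEC12A alone and in 11.0% of all windows, and CACGTG for 0 antigens and in 6.34% of all windows. Both GAGGAA matches of CD33 read as TTCCTC on its own strand, and no match overlapped another. A match is a run of letters and was not tested as a binding site.

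To determine whether the antigens differed between the groups, all 16817 genes were compared by limma, a linear model that shares the estimate of variance between genes, on log2(TPM + 1). An adjusted p under 0.05 was reached by 3.32% of all genes, 199 lower and 360 higher (288 and 230 after median-of-ratios scaling), and by 0 of the 9 antigens. The count over all genes shifted when any sample was left out. In those fits the variance rests on the pair of samples in the other group, and the part of a single library was not tested. ANPEP and CD4 had an adjusted p under 0.1, as had 9.94% of all genes. An unadjusted p under 0.05 was found for 5 antigens, against 23.8% of all genes. The criterion of the study, a p under 0.05 together with a change of over 0.5 in log2 terms, was applied here to the unadjusted p, since the study does not say whether its p was adjusted. It was met by 3 antigens on the higher side (ANPEP, PTPRC and CD4), where 12.1% of all genes met it, and by 1 on the lower side (CD38), where 6.55% did. The count on the higher side depended on the scaling. With median-of-ratios scaling the log2 fold changes were 0.51 for ANPEP, 0.49 for PTPRC and 0.45 for CD4. After the correction for GC content described below they were 0.42, 0.55 and 0.42. CD38 stayed beyond the limit, at -0.80 and -0.72. The groups did not overlap in 7 antigens, 6 higher and 1 lower in sh-ANP32B, whereas 54.6% of all genes did not overlap, 33.2% higher and 21.4% lower. The median log2 fold change was 0.48 over the 9 antigens, 0.40 without CD99, and 0.08 over all genes tested.

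**Figure D2:**
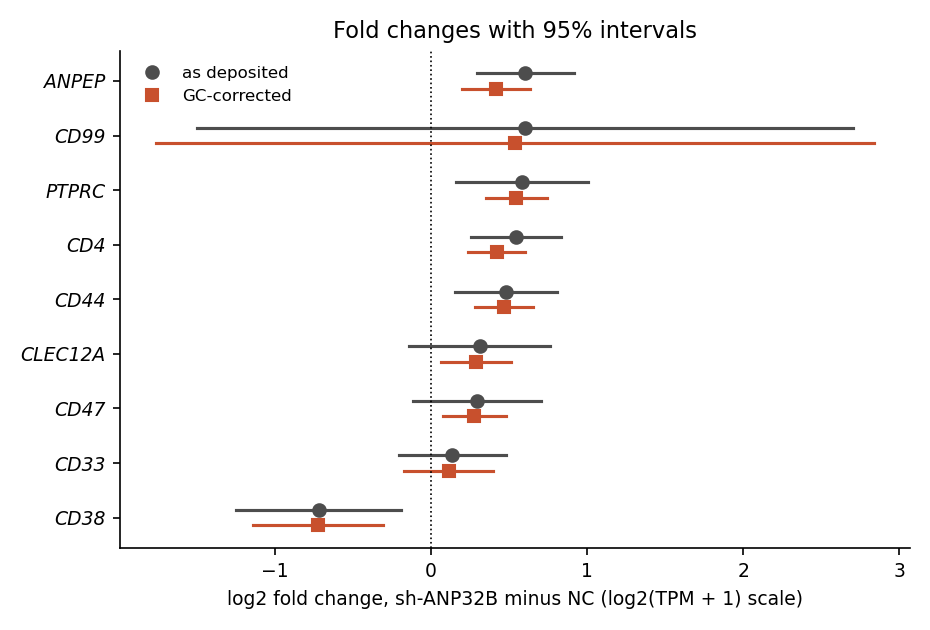
Log2 fold change of each antigen, sh-ANP32B minus NC, on the log2(TPM + 1) scale, from limma on 2 samples in each group. Points are estimates and lines 95% intervals, in grey for the values as deposited and in orange after correction for GC content. The intervals as deposited exclude 0 for ANPEP, PTPRC, CD4, CD44 and CD38 (-0.72), and that of CD99 spans -1.50 to 2.71.

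Among the antigens of the myeloid lineage, ANPEP had the largest difference. ANPEP (ENSG00000166825, chromosome 15, 89784895 to 89815401, minus strand) is an aminopeptidase of granulocytes and monocytes. It stood at 87.6 and 81.7 TPM in NC, compared with 124 and 134 TPM after knockdown. The groups did not overlap, and the means stood 1.53-fold apart. On the log2 scale the difference was 0.61 (SE 0.130, 95% interval 0.30 to 0.92), with a limma adjusted p of 0.0581, just above the threshold. ANPEP passed at an adjusted p of 0.0459 when only genes reaching 1 TPM in all 4 samples were kept, where fewer genes were tested, and at 0.0298 after GC correction.

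CD33 (ENSG00000105383, chromosome 19, 51225064 to 51243860, plus strand), a sialic acid binding receptor that inhibits myeloid cells, measured 68.3 and 58.5 TPM in NC against 69.1 and 70.1 TPM after knockdown. The higher NC sample lay within 1 TPM of the lower sh-ANP32B sample. Its log2 fold change came to 0.14 (SE 0.143, limma adjusted p 0.619), and its 95% interval of -0.21 to 0.48 does not exclude a difference of either sign. The value was 0.25 without NC replicate 1, 0.03 without NC replicate 2 and 0.04 after median-of-ratios scaling. CLEC12A (ENSG00000172322, chromosome 12, 9951316 to 9995694, plus strand), a C-type lectin receptor with an inhibitory tail, stood at 50.2 and 57.7 TPM in NC, compared with 78.7 and 57.2 TPM after knockdown. Only sh-ANP32B replicate 1 stood above the NC samples. The estimated log2 fold change was 0.31 (SE 0.189, 95% interval -0.14 to 0.76, limma adjusted p 0.369), and it was 0.09 without sh-ANP32B replicate 1 and 0.54 without replicate 2.

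CD38 was the one antigen with a negative fold change. The gene (ENSG00000004468, chromosome 4, 15778275 to 15853232, plus strand) measured 8.19 and 8.26 TPM in NC against 5.10 and 4.15 TPM after knockdown. Both knockdown samples lay below both NC samples, and their mean was 0.563 times the NC mean. On the log2 scale the difference was -0.72 (SE 0.222, 95% interval -1.25 to -0.19), with a limma adjusted p of 0.120. On this scale the change of a gene so low is understated, and with a pseudocount of 0.1 it was -0.82. After GC correction it was -0.72, with a limma adjusted p of 0.0394. In the order of all genes tested from lowest to highest fold change, CD38 stood at percentile 3.95.

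PTPRC (ENSG00000081237, chromosome 1, 198638457 to 198757476, plus strand) stood at 113 and 116 TPM in NC, compared with 203 and 147 TPM after knockdown. Both knockdown samples were higher, but they differed from each other by 0.47 on the log2 scale, the widest gap between sh-ANP32B replicates among the 9 antigens. Its log2 fold change was 0.59 (SE 0.177, 95% interval 0.16 to 1.01, limma adjusted p 0.115). Without sh-ANP32B replicate 1 it was 0.35, and without sh-ANP32B replicate 2 it was 0.82.

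CD4 (ENSG00000010610, chromosome 12, 6786858 to 6820799, plus strand) measured 440.0 and 432 TPM in NC against 607 and 668 TPM after knockdown. The knockdown samples were higher by 201 TPM on average, the largest difference in TPM among the antigens. The estimated log2 fold change was 0.54 (SE 0.121, 95% interval 0.25 to 0.83), with a limma adjusted p of 0.0616. The T cell receptor gene TRAC, by comparison, lay at 0.829 to 1.32 TPM in NC against 0.178 to 0.293 TPM after knockdown. TRAC did not reach 1 TPM in 2 samples, so its difference was not tested.

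Of the adhesion molecules, CD44 (ENSG00000026508, chromosome 11, 35138882 to 35232402, plus strand) stood at 101 and 99.8 TPM in NC, compared with 152 and 130.0 TPM after knockdown. The NC samples were almost level, and both knockdown samples were above them. On the log2 scale the difference was 0.48 (SE 0.137, 95% interval 0.15 to 0.81, limma adjusted p 0.102), which fell short of the fold limit of the study. CD47 (ENSG00000196776, chromosome 3, 108043091 to 108091862, minus strand) measured 70.6 and 79.996 TPM in NC against 106 and 80.7 TPM after knockdown. The groups were separated by less than 1 TPM, and the difference rested on sh-ANP32B replicate 1. Its log2 fold change was 0.29 (SE 0.172, 95% interval -0.12 to 0.71, limma adjusted p 0.353). It was 0.10 without sh-ANP32B replicate 1 and 0.49 without replicate 2.

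The NC samples of CD99 disagreed, so that its comparison depended on which of them was used. The gene (ENSG00000002586, X chromosome, 2691187 to 2741309, plus strand, in the pseudoautosomal region shared with the Y chromosome) stood at 72.4 and 7.17 TPM in NC, compared with 36.9 and 35.6 TPM after knockdown. The NC samples stood 10.1-fold apart, one above and one below both knockdown samples, which differed by 0.05 on the log2 scale. A gap between the NC samples at least as large was found in 7 of the 16817 genes tested, CD99 included. Among the 16 other tested genes of the same pseudoautosomal region the largest gap was 0.73 on the log2 scale and the median 0.13. The mean of 36.2 TPM in sh-ANP32B was below the NC mean of 39.8 TPM, whereas the log2 fold change was positive at 0.60 (SE 0.880, limma adjusted p 0.731). Without NC replicate 1 it was 2.19, and without NC replicate 2 it was -0.98. Reads of genes with a copy on X and Y can be split between them, and how the authors counted such reads is not given in the sources used here. The part of such splitting in the CD99 values was not tested.

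The gaps between the sh-ANP32B replicates followed the base composition of the transcripts. PTPRC, CLEC12A and CD47, with a GC content of 35.2%, 37.2% and 38.4% in their longest transcript, were lower in replicate 2 by 0.47, 0.45 and 0.39 on the log2 scale. CD4 and ANPEP, with 54.5% and 58.6%, were higher in replicate 2 by 0.14 and 0.11. Over the 9 antigens the Spearman rho between GC content and this gap was 0.97, and over 15427 genes with a known GC content it was 0.577. All points come from the same pair of libraries, and genes are not independent replicates. For the NC pair, replicate 2 minus replicate 1, the rho over all genes with a known GC content was -0.206, of the opposite sign.

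**Figure D3:**
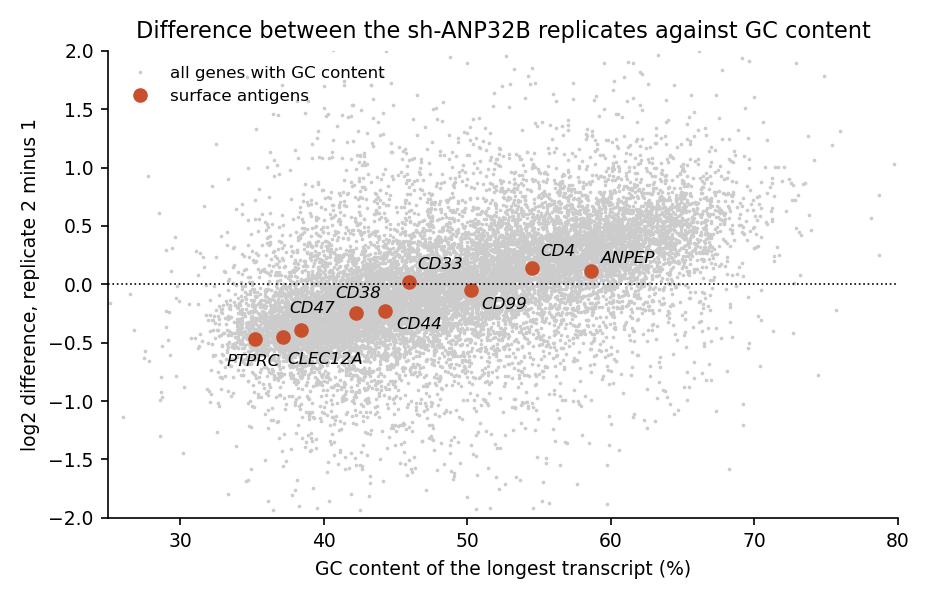
Log2 difference between the sh-ANP32B samples (replicate 2 minus replicate 1) against GC content, taken over the longest transcript, with the 9 antigens in orange and all other genes with a known GC content in grey, of which 55 lie outside the axes. The antigens run from PTPRC at 35.2% GC and -0.47 to ANPEP at 58.6% GC and 0.11.

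Each sample was then corrected by a loess fit on GC content of its deviation from the mean of all samples. This also removes a GC trend between the groups. After the correction 5 antigens passed at an adjusted p under 0.05, where 16.6% of all genes did. They were PTPRC (log2 fold change 0.55, limma adjusted p 0.0117), CD44 (0.47, 0.0145), CD4 (0.42, 0.0179), ANPEP (0.42, 0.0298) and CD38 (-0.72, 0.0394). The fold changes of ANPEP and CD4 shrank from 0.61 and 0.54, and those of the other 3 hardly moved. CD47, CLEC12A and CD33 did not pass, with fold changes of 0.28, 0.29 and 0.11. The intervals as deposited and after correction overlap for every antigen, as the plot of fold changes shows. Both come from the same samples, so their overlap is no independent check.

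The antigens were then set beside other genes of their biology, from 5 lists written by hand. Of 117 genes in these lists 83 were tested, and 11 of them were higher and 0 lower at an adjusted p under 0.05. After GC correction the split was 28 higher and 7 lower, beside 1222 higher and 1335 lower over all genes. By raw p under 0.05 it was 32 higher and 5 lower, beside 2528 and 1467 over all genes. The number of genes of the lists that passed also shifted when a sample was left out, where the variance rests on the pair of samples in the other group. The median log2 fold change was 0.35 over the 83 genes, against 0.08 over all genes tested. By list it was 0.49 for blast and progenitor antigens and 0.48 for antigens of monocytes and granulocytes. It was 0.25 for ligands and partners, 0.31 for kinases, phosphatases and linkers, and 0.17 for processing enzymes and splicing factors. The 559 genes called among all genes amount to 2.14% higher and 1.18% lower.

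Among other antigens of blasts and progenitors 2 of 19 tested genes were higher at an adjusted p under 0.05, as were 2.14% of all genes. CD93, a C-type lectin of myeloid progenitors and leukemia stem cells, measured 136 and 142 TPM in NC against 243 and 266 TPM after knockdown (log2 fold change 0.87, SE 0.125, limma adjusted p 0.0348). CD52, a small glycoprotein targeted by alemtuzumab, stood at 10.9 and 10.4 TPM in NC, compared with 23.9 and 22.1 TPM after knockdown (1.05, SE 0.172, limma adjusted p 0.0408). The median log2 fold change of this list was 0.49, and 16 of the 19 were positive, as were 57.9% of all genes. The most abundant members without a call were CD37, with 0.68, SPN, with 0.43, ADGRE5, with 0.48, and CD48, with 0.20.

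Among surface antigens of monocytes and granulocytes 4 of 16 tested genes were higher at an adjusted p under 0.05, beside 2.14% of all genes. All 4 were above the 9 antigens in fold change, but they were picked by passing, which none of the antigens did, so this is no comparison of the lists. ITGAX, the integrin chain CD11c, measured 10.4 and 10.6 TPM in NC against 41.7 and 41.6 TPM after knockdown (log2 fold change 1.89, SE 0.158, limma adjusted p 0.0154). CD86, a costimulatory ligand, stood at 1.66 and 1.51 TPM in NC, compared with 8.30 and 6.21 TPM after knockdown (log2 fold change 1.66). ITGB2, the chain with which ITGAX pairs, and CSF3R, the receptor for G-CSF, had log2 fold changes of 0.98 and 0.88. The median of the list was 0.48, equal to that of the 9 antigens to 2 decimals. HLA-DRA and CCR2 were the 2 genes with negative values, at -0.65 and -0.01.

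Of ligands and partners of the antigens 4 of 16 tested genes were higher at an adjusted p under 0.05, beside 2.14% of all genes. These were SPP1, which encodes the CD44 ligand osteopontin (32.97 and 29.4 TPM in NC, against 97.7 and 76.3 TPM after knockdown, log2 fold change 1.44, limma adjusted p 0.0261), PILRA, an inhibitory receptor that binds CD99 (1.46, 0.0362), IL16, a ligand of CD4 (1.17, 0.0399), and SELPLG, a selectin ligand (0.76, 0.0494). On the CD47 side, its receptor SIRPA measured 82.6 and 78.6 TPM in NC against 77.3 and 91.2 TPM after knockdown (log2 fold change 0.06, SE 0.144, limma adjusted p 0.851). CALR, whose protein prompts engulfment when exposed at the surface, had -0.34 (SE 0.120, limma adjusted p 0.154), and HMMR, a second hyaluronan receptor, had -0.43 (SE 0.189, limma adjusted p 0.227).

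Of the kinases, phosphatases and linkers at the tails of these antigens 1 of 17 tested genes was higher at an adjusted p under 0.05, beside 2.14% of all genes. FGR, a Src family kinase of myeloid cells, stood at 27.0 and 24.5 TPM in NC, compared with 60.5 and 64.7 TPM after knockdown (log2 fold change 1.25, SE 0.147, limma adjusted p 0.0261). PTPN6 (SHP-1) and INPP5D (SHIP-1), phosphatases recruited by inhibitory receptors, had 0.35 and 0.44, with limma adjusted p of 0.264 and 0.0992. Of the 17 genes of this list 12 had a positive and 5 a negative fold change. Of the enzymes and splicing factors that process the antigens 0 of 15 tested genes passed, and 2, HNRNPL and ADAM10, had an unadjusted p under 0.05, as had 23.8% of all genes. HNRNPL, a splicing factor known to act on the variable exons of PTPRC, measured 420.4 and 422 TPM in NC against 298 and 297 TPM after knockdown (log2 fold change -0.50, limma adjusted p 0.0669). QPCTL, the cyclase that modifies CD47 for binding to SIRPA, had 0.11 (SE 0.159, limma adjusted p 0.728).

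**Figure D4:**
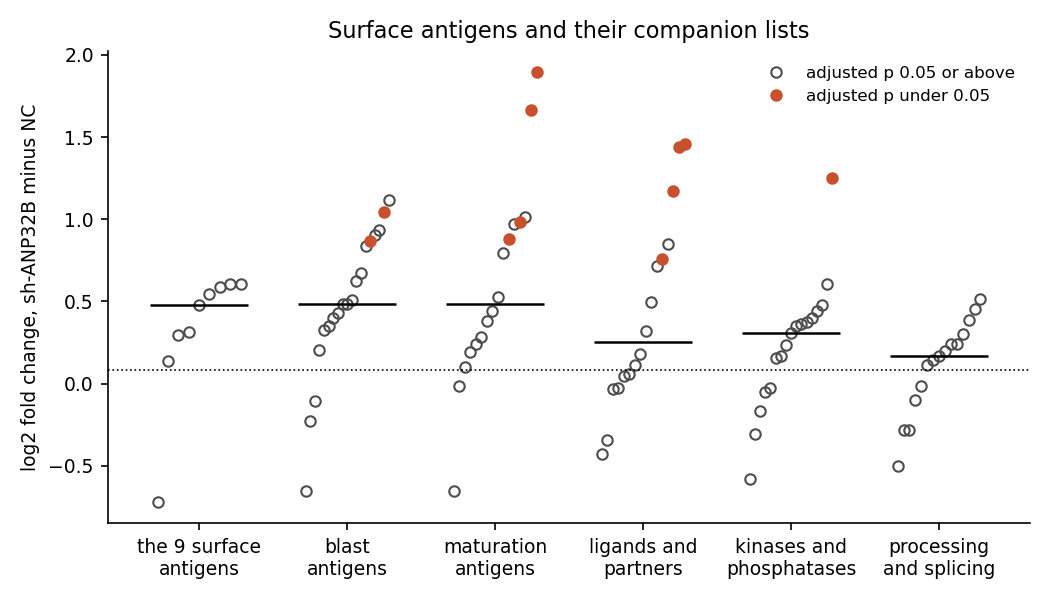
Log2 fold change, sh-ANP32B minus NC on the log2(TPM + 1) scale, of each tested gene in the 9 antigens and the 5 companion lists. Filled orange points have a limma adjusted p under 0.05, black lines are list medians and the dotted line is the median of all genes tested, 0.08. The antigens hold 0 filled points and the companion lists 11, all above 0.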

How the data were processed

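RNA was sequenced from 4 samples of Kasumi-1, 2 NC and 2 sh-ANP32B, grouped by their titles. The authors aligned the reads to hg38 with HISAT2 2.0.5 and deposited TPM values, 1 column per sample. The unit was taken from the values, whose sums lay between 997812 and 998314. The program that made the TPM values, its annotation and any filter are not given in the sources used here. Of 18567 gene IDs, 16986 were matched to symbols, positions and GC content in GENCODE v44 (hg38). Genes that reached 1 TPM in 2 or more samples were tested on log2(TPM + 1) with limma 3.58.1 (R 4.3.3) and an abundance trend, two-sided, with Benjamini-Hochberg adjustment over all genes tested. The count model the study used cannot be applied to TPM. An exact permutation test of 2 against 2 cannot give a p under 0.333 and was not run.

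All 9 antigens with a row were named, together with ANP32B, every companion gene with an adjusted p under 0.05, and at most 6 further genes of each companion list by level. ADAM10, CCR2, HLA-DRA and QPCTL lay outside this rule and were named after their values were seen. The antigens and lists were chosen with earlier results of these data known. Alternatives were scaling, filter, pseudocount, abundance trend, replicate block, GC correction, threshold, and leaving out each replicate. Sequences were read from RefSeq windows (GRCh38.p14). The sh-ANP32B replicates differed with GC content (Spearman rho 0.577 over 15427 genes), and the NC replicates less so and with the opposite sign (-0.206).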

Additional observations from a re-analysis of the deposited data

How the results depend on the processing

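ANPEP, CD4, PTPRC, CD44, CD47, CLEC12A and CD33 kept a positive and CD38 a negative fold change in every alternative fit run. CD99 stayed positive in all but 1, with leave-one-out values from -0.98 (without NC replicate 2) to 2.19 (without NC replicate 1). The number of antigens called, 0 in the report, was 1 (ANPEP) with a floor of 1 TPM in all 4 samples (812 of 14476 genes called), 5 once GC was corrected and 3 with GC correction and replicate block together (ANPEP, CD44 and PTPRC). Leaving out one replicate each gave 0 to 6. The 6 passed without sh-ANP32B replicate 2, 5 without sh-ANP32B replicate 1, 1 (CD99) without NC replicate 1 and 0 without NC replicate 2. In these fits 1 residual degree of freedom is left, and the lone sample is assumed to vary like the other group.

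The count over all genes, 559 as reported, was 1473 with the replicate block, 2557 after GC correction, 1853 with both, 4 at an adjusted p under 0.01, 273 to 4079 with one replicate left out, and 0 when limma used no abundance trend (3701 with a raw p under 0.05). The count of companion genes, 11 as reported, was 20 with the replicate block, 35 after GC correction (7 lower), 24 with both, 0 at an adjusted p under 0.01, 7 to 44 with one replicate left out, and 0 with no abundance trend (32 with a raw p under 0.05, against 37). The cause of these shifts was not tested. The groups share the replicate numbers 1 and 2, and nothing states what they stand for. The deviations of same-numbered samples were weakly and negatively correlated across genes (Pearson -0.0925, Spearman -0.168), so a crossed replicate block was added after seeing the data, with 1995 genes, 3 antigens and 24 companion genes called. With the stated block 0 antigens passed and 6 had an unadjusted p under 0.05, as had 3676 of 16817 genes. TPM keeps no depth, so what depth limits could not be assessed.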
